A study of Mus musculus with 4 samples.

Results

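Chromatin accessibility at protein-coding genes was compared between the 2 barcode sets of 1 single-cell ATAC-seq table of old long-term hematopoietic stem cells (LT-HSCs). Every cell barcode of the table ends in 1 of 2 suffixes, and the cells were split by it into set 1 (818 cells) and set 2 (636 cells). A locus was taken as the body of a protein-coding gene of the GENCODE annotation of GRCm38 plus the 5000 bp upstream of it, and a locus was included when both sets together had at least 200 counts in its peaks. This held for 15236 of 21951 protein-coding genes, whereas 4768 overlapped no peak and 1947 had peaks with fewer counts. Levels are given as CPM, the counts at a locus divided by all counts of the set and multiplied by 1000000. Differences are given as the log2 ratio of CPM in set 1 over set 2, so that positive values are higher in set 1.

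The table is named in the labels of 2 samples, CLCA3A1high and CLCA3A1low LT-HSCs. Both were sorted with an antibody against the surface protein CLCA3A1 from C57BL/6JRj mice aged 22 to 28 months, and the labels give no other allele, agent or treatment for either. According to the methods of the study, LT-HSCs were LSK (lineage-negative, Sca-1-positive, c-Kit-positive) cells that were negative for CD34 and for CD135, the product of Flt3. For each sample 2500 cells of each of 4 mice were combined to 10000 cells, so that the animals cannot be told apart. No label or header pairs a suffix with a sample. Neither set was therefore assigned to a sorted group, and none of the ratios has a CLCA3A1 direction. The labelled young LT-HSCs (3 to 4 months) and the further sample of old LT-HSCs were not used here.

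LT-HSCs are rare bone marrow cells that can renew themselves and replenish all blood lineages over a lifetime. They give rise to multipotent progenitors, which gain Flt3 and CD34 before lymphoid and myeloid lineages separate. In ATAC-seq the Tn5 transposase inserts adapters where DNA is free of nucleosomes, so that counts in a promoter or a distal element read how open it is. Promoters are open in many cell types, whereas distal elements in introns and between genes are opened more selectively by factors such as PU.1, RUNX1, GATA2 and AP-1.

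Set 1 had 13050952 counts and set 2 had 9820094, with medians of 13358.5 and 12755 counts per cell, and no barcode sequence occurred under both suffixes. With 1 library per set no test of a difference was possible and no p-value is given. The intervals in parentheses are exact 95% Clopper-Pearson intervals of the counts, converted to the log2 ratio. They cover counting error only and are too narrow even for that, since 88.7% of the values above 0 were even: a sequenced fragment brings a pair of cut sites, which are not independent. A locus was called shifted at a ratio of 1.5-fold or more, whatever its interval. A difference between sorted groups and one between libraries of the same kind cannot be told apart in this design.

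The sets were alike at most genes and differed strongly at a small number. Of the 15236 loci, 516 (3.39%) were 1.5-fold or more higher in set 1 and 388 (2.55%) were 1.5-fold or more higher in set 2. The median log2 ratio was 0.00046, and 90% of the loci lay between -0.44 and 0.49. A difference of 2-fold or more was found at 116 loci in the direction of set 1 and at 61 in that of set 2, and of 4-fold or more at 7 and 4. The counting interval excluded equal CPM at 3418 loci toward set 1 and at 3415 toward set 2, and still did so at 2215 and 2251 after all counts were halved to allow for pairs. Of the shifted loci, 281 toward set 1 and 169 toward set 2 had between 200 and 500 counts. Among the 2472 loci with 200 to 500 counts, 11.4% were shifted to set 1 and 6.84% to set 2, whereas among the 263 loci with 5000 or more counts none was shifted to set 1 and 1 to set 2.

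**Figure D1:**
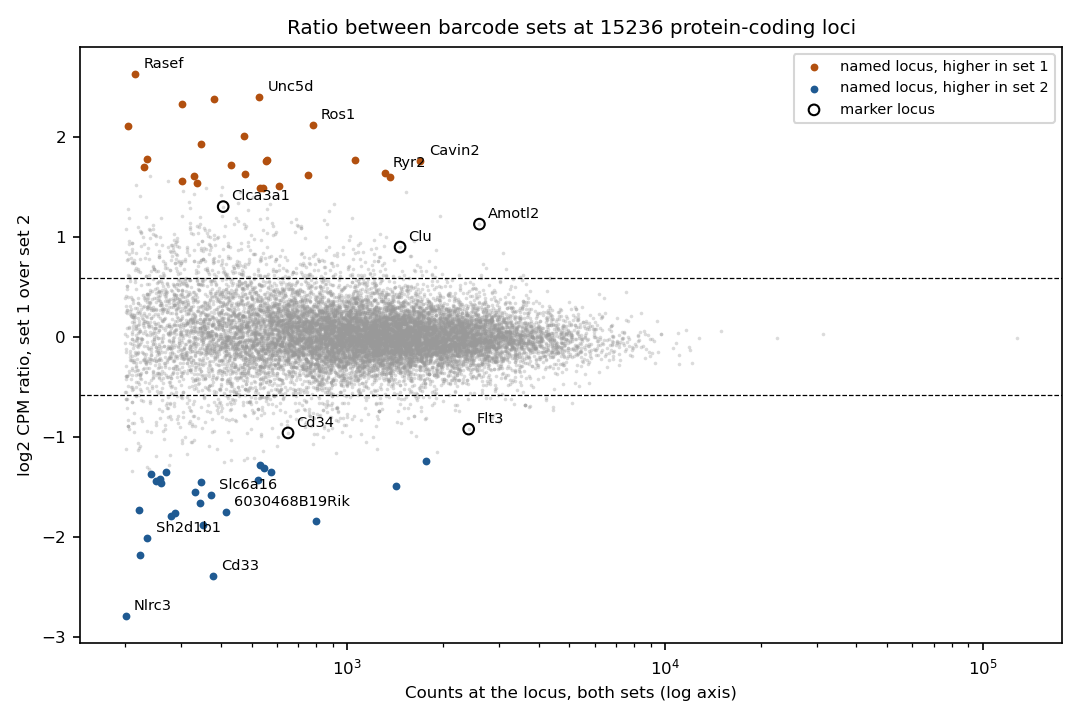
Log2 ratio of CPM in set 1 over set 2 (vertical axis) against the counts of both sets (horizontal log axis) at 15236 protein-coding loci (grey points). Dashed lines mark 1.5-fold, filled points are the 25 named loci in each direction and open circles are the 5 marker loci. The cloud narrows with rising counts, and Amotl2, Flt3 and Cavin2 lie far outside it at over 1000 counts.

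Sequence was read at the peaks on which the results turn. A set of 7 short words that blood transcription factors bind was sought on both strands of the 300 bp at the centre of a peak. PU.1, an ETS factor of myeloid and lymphoid cells, was represented by GAGGAAGT, and the remaining ETS factors were represented by CCGGAAGT. For the RUNX factors the word was TGTGGT. For the GATA factors, which act in stem, erythroid and megakaryocytic cells, it was AGATAA. AP-1, the dimers of FOS and JUN, was represented by TGANTCA with any base in the middle. The TEAD factors, partners of TAZ and YAP, were represented by GGAATG. The C/EBP factors of myeloid cells were represented by TTGCNNAA. Different words may overlap in part, and a match is a match of letters that does not show binding.

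Sequences are shown for the promoters of Clca3a1 and Flt3, whose proteins the sort used, for the most shifted well-counted peak of the TEAD target Amotl2, and for the promoters of Cavin2 and Haao, among the most shifted in each direction. They are 300 bp of the plus strand of GRCm38 from RefSeq, 5′ to 3′, with words in capitals. The windows lie within the peak as close to its centre as possible with no more than 30 bases of annotated UTR. The Clca3a1 promoter (chr3:144760980-144761279, gene on the minus strand) and the Flt3 promoter (chr5:147400465-147400764, minus strand) held none of the 7 words. The intronic Amotl2 peak (chr9:102726017-102726316, plus strand) held 1 TEAD word, the Cavin2 promoter (chr1:51288853-51289152, plus strand) 1 C/EBP word and the Haao promoter (chr17:83847147-83847446, minus strand) 1 TEAD word. Absence of a word says only that these letters are not in this window.
Clca3a1: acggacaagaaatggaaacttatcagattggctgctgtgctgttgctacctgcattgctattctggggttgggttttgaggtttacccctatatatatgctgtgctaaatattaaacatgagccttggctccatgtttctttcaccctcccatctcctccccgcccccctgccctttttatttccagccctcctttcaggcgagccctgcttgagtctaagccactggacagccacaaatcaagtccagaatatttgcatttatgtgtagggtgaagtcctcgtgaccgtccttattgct
Amotl2: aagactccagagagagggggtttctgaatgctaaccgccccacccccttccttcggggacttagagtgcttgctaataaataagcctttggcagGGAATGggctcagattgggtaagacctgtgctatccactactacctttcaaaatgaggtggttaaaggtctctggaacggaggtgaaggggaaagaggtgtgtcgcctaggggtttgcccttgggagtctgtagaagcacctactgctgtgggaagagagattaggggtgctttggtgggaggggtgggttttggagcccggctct
Cavin2: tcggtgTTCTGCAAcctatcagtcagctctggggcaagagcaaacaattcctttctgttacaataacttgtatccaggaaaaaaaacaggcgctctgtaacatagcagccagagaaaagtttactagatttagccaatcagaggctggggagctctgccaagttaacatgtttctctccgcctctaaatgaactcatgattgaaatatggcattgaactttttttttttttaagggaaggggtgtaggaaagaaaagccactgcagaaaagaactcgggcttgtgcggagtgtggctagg
Haao: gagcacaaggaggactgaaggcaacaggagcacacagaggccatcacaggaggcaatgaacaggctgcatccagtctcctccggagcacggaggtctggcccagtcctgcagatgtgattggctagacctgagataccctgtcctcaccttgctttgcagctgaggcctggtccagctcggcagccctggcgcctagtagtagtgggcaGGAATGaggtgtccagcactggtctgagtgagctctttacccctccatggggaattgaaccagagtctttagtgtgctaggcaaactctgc
Flt3: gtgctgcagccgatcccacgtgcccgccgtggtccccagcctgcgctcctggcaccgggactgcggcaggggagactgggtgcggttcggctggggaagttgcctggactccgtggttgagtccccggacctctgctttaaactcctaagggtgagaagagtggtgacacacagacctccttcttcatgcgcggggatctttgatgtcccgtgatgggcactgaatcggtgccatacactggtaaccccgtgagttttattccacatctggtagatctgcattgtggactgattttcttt

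The 25 loci with the clearest shift to set 1 were ranked by the interval bound nearest to 0. They were 2.72-fold to 6.16-fold higher in set 1, counting Usp29, which shares most of its counts with Peg3. In first place was Unc5d, which encodes a netrin receptor, with 35.5 CPM in set 1 and 6.72 CPM in set 2, a log2 ratio of 2.39 (2.03 to 2.79). Rasef, a Rab GTPase with EF-hands, had 14.7 CPM in set 1 and 2.34 CPM in set 2, with the highest ratio of all loci at 2.62 (2.02 to 3.34). The locus of the deubiquitinase Usp13 had 25.5 and 4.89 CPM (log2 ratio 2.37, 1.94 to 2.85). Ros1, a receptor tyrosine kinase, had 50.8 CPM in set 1 and 11.7 CPM in set 2 and no promoter peak, and its ratio of 2.11 (1.83 to 2.42) came from 4 other peaks, of which the leading one was intronic.

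Better covered loci shifted to set 1 were Cavin2, Ryr2, Peg3 and Kcnb2. Cavin2, a coat protein of caveolae, had 106 CPM in set 1 and 31.5 CPM in set 2, a log2 ratio of 1.76 (1.58 to 1.94). Its promoter peak and a peak 11335 bp downstream of the start had nearly the same ratio, 1.75 and 1.80. Peg3, an imprinted gene that encodes a zinc finger protein, and Usp29, its imprinted neighbor, share a promoter peak with 83.6 CPM in set 1 and 27.7 CPM in set 2 (log2 ratio 1.59, 1.40 to 1.79). Without peaks shared with Peg3, Usp29 was no longer shifted (log2 ratio 0.44). Ryr2, the calcium release channel of the sarcoplasmic reticulum, had 80.9 and 26.1 CPM over 11 peaks (log2 ratio 1.63, 1.44 to 1.84). Kcnb2 and Kcna4, voltage-gated potassium channels, had log2 ratios of 1.76 and 1.56, and the cell adhesion gene Cdh11 had 1.63. In 15 of the 25 loci the peak that contributed most to the shift was a promoter peak of the gene itself, and in 10 it lay outside promoters. None of the 25 belongs to the LT-HSC list used below. That list holds only 20 of the 15236 tested loci, so this absence says little.

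Nlrc3 and Cd33 led the loci shifted to set 2. Nlrc3, a regulator of innate immune signaling, had 2.45 CPM in set 1 and 17.2 CPM in set 2, and its log2 ratio of -2.79 (-3.40 to -2.26) was the lowest of all loci. Cd33, a sialic acid-binding receptor of myeloid cells, had 5.82 CPM in set 1 and 30.7 CPM in set 2 (log2 ratio -2.39, -2.78 to -2.03). Both of its peaks were promoter peaks and both were lower in set 1, with 72 against 252 counts at the one and 4 against 49 at the other. Haao, which encodes 3-hydroxyanthranilate dioxygenase of the kynurenine pathway, had 16.6 and 59.3 CPM (log2 ratio -1.84, -2.07 to -1.61), and -0.65 without its most counted peak. Arhgap30, which encodes a GTPase-activating protein, was the locus with the most CPM in set 2 among the first 10, with 34.9 and 98.3 CPM (log2 ratio -1.49, -1.66 to -1.33).

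Further loci among the 25 whose genes are known from leukocytes were Sh2d1b1, an adaptor of SLAM family receptors, with a log2 ratio of -2.01, and Jaml, an adhesion molecule of leukocytes, with -1.80. Cd69, an early activation antigen of lymphocytes, had -1.66, Tespa1, which acts in thymocyte selection, had -1.55, and Nlrp1b, an inflammasome sensor, had -1.46. Without its most counted peak, Nlrp1b had -0.52 and was no longer shifted. Of the T and NK cell list, 4 tested loci were higher and 3 lower in set 1, with a median of 0.025. Its loci with fewer than 200 counts, of which these were chosen after their values were seen, had 1.07 against 8.96 CPM at Nkg7, 0.536 against 7.13 CPM at Zap70 and 0.613 against 6.62 CPM at Prf1, while Cd4 had 0.383 against 0.204 CPM. Without the 5% of cells with the highest share of counts at loci of mature cell markers, Nlrc3 had a log2 ratio of -2.71, Cd33 of -2.46 and Cd69 of -1.64. Genes best known outside blood were also among the 25, such as Foxr1 (-2.18), C1qtnf3 (-1.88), Tgm4 (-1.76), Cyp8b1 (-1.73) and Zp1 (-1.45). The shift of Slc6a16 (-1.59) came from 1 peak at the promoter of the neighboring Cd37, a tetraspanin of B cells. The shifts of Rapsn and Slc1a7 rested on 1 peak each and turned to 0.18 and 1.21 without it.

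The value of Ugt1a1 rested on 1 peak that it shares with 9 other loci, with 14.6 CPM in set 1 and 36.4 CPM in set 2, and 1 cell held 10.9% of the counts. With peaks scored as open or not in every cell, the log2 ratio was -0.0073 instead of -1.31, and without cells over 3 times the median counts it was -0.23. At the other named loci, no single cell held more than 4.58% of the counts.

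**Figure D2:**
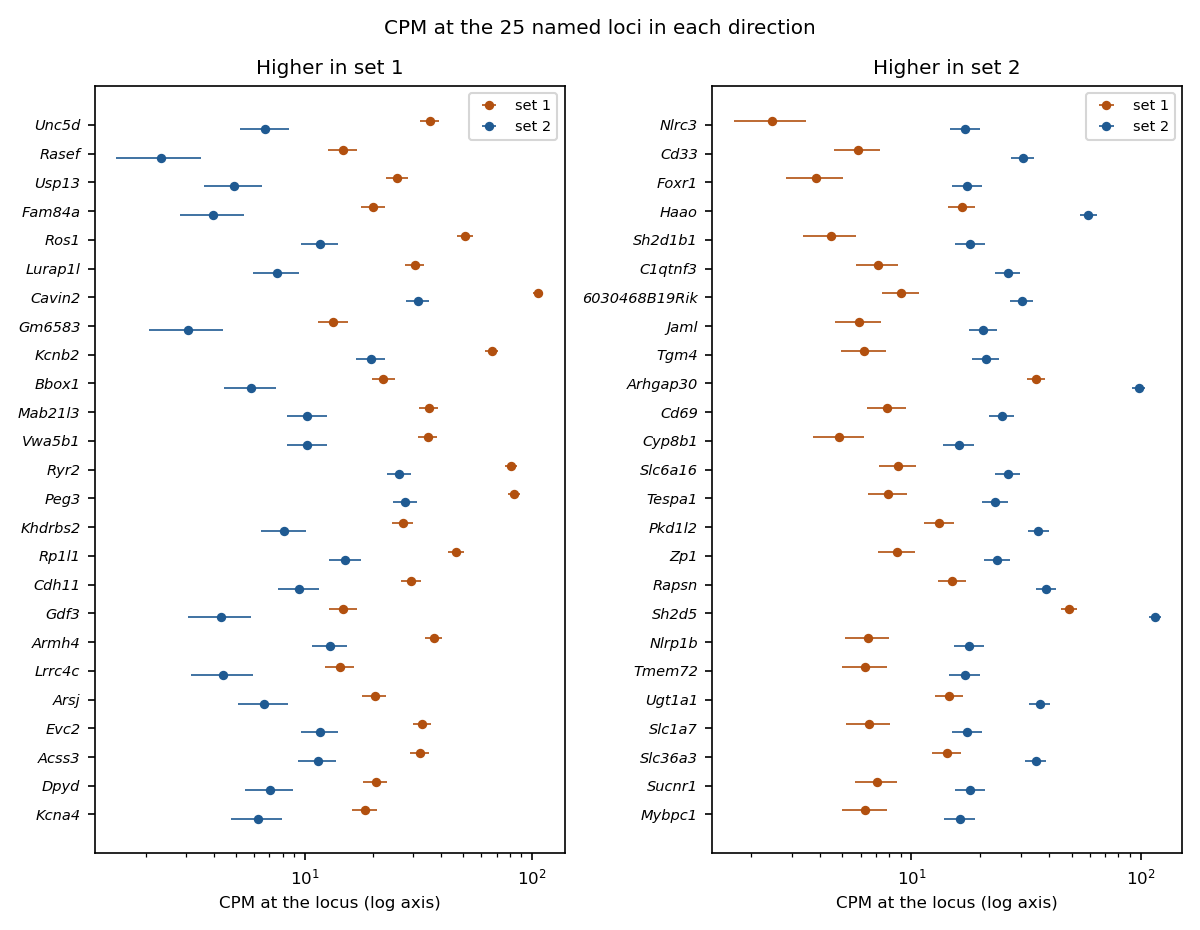
CPM in set 1 and set 2 (log axis) at the 25 named loci higher in set 1 (left) and the 25 higher in set 2 (right), ordered by rank, with exact 95% Poisson intervals as bars that cover counting error only. The bars of the sets do not meet at any of these loci, for which they were chosen, and Cavin2, Arhgap30 and Sh2d5 have the most CPM.

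The 5 marker loci were examined peak by peak. Clca3a1, Flt3 and Cd34 encode the proteins that the sort used, and Amotl2 and Clu are a target of TEAD factors and the chaperone clusterin. Clca3a1 had 23.9 CPM in set 1 and 9.67 CPM in set 2 (log2 ratio 1.30, 0.97 to 1.65). Its promoter peak alone had 258 counts in set 1 and 52 in set 2 and a log2 ratio of 1.89 (1.47 to 2.36). The other 2 peaks, 7504 and 23791 bp into the gene, had 54 counts in set 1 and 43 in set 2, and without the promoter peak the log2 ratio was -0.085 (-0.69 to 0.53).

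Amotl2 had 148 CPM in set 1 and 68.0 CPM in set 2 (log2 ratio 1.12, 1.00 to 1.25), and all 6 of its peaks were higher in set 1, by log2 ratios of 0.25 to 2.25. Its promoter peak had 53.7 and 22.3 CPM, and an intronic peak 5879 bp downstream of the start had 52.1 and 16.2 CPM (log2 ratio 1.68). An element inside the gene was thus shifted further than the promoter. Clu had 80.0 CPM in set 1 and 43.0 CPM in set 2 (log2 ratio 0.90, 0.73 to 1.06), with 17.2 against 3.56 CPM at its second promoter peak. A peak 8393 bp into Clu went the other way, with 9 counts in set 1 and 65 in set 2.

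Flt3 had 76.1 CPM in set 1 and 144 CPM in set 2 (log2 ratio -0.92, -1.04 to -0.81). The promoter peak had 27.7 and 53.6 CPM, and peaks 34054 and 59309 bp into the gene had 8.81 against 27.9 CPM and 6.67 against 22.9 CPM. A peak 11420 bp into the gene and one 2098 bp upstream were higher in set 1, with log2 ratios of 0.59 and 0.63, and so was a sparse peak 68747 bp into it (40 and 13 counts). Cd34 had 20.2 and 39.4 CPM (log2 ratio -0.96, -1.19 to -0.73), with -0.81 at the promoter peak and -1.71 at a peak 4863 bp downstream. Both loci were open in both sets although the sort had selected cells without the proteins.

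**Figure D3:**
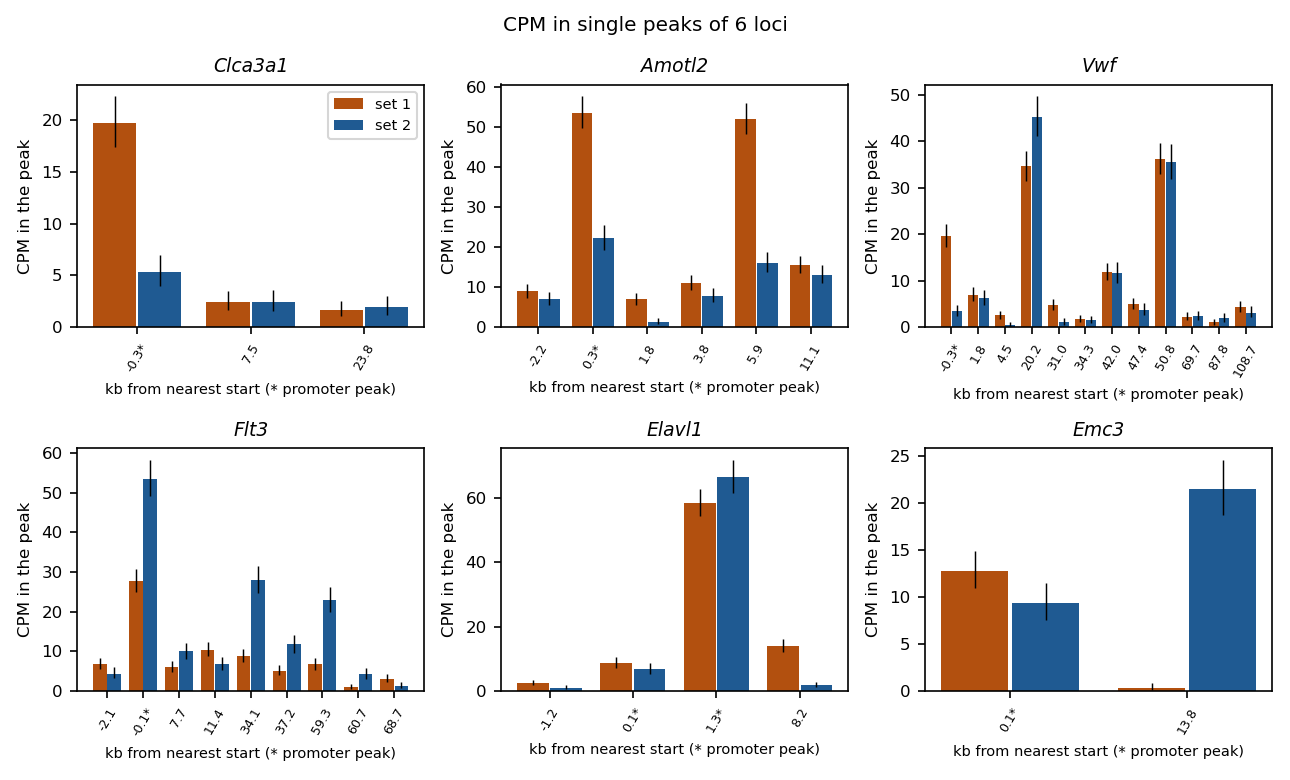
CPM in set 1 and set 2 (vertical axis) in the single peaks of 6 loci with 20 or more counts, labeled by the distance of the peak centre from the nearest transcript start in kb, with an asterisk for promoter peaks and exact 95% Poisson intervals as bars. A difference of 1.5-fold or more is seen at the promoter only in Clca3a1, at several peaks in Amotl2 and Flt3, at the promoter but not the tallest peaks in Vwf, at peaks 8211 bp inside and 1203 bp from the nearest start but not the tallest peak in Elavl1, and inside the gene in Emc3.

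Promoter and other peaks were then compared apart. A peak counted as promoter when it came within 1000 bp of any protein-coding transcript start. Of 13700 genes with at least 200 counts in promoter peaks, 410 (2.99%) were shifted to set 1 and 283 (2.07%) to set 2. Of 6663 genes with as many counts in the other peaks of the locus, 616 (9.25%) were shifted to set 1 and 625 (9.38%) to set 2. The central 90% of log2 ratios was 0.88 wide at promoters and 1.55 wide outside them, with a median of 916 counts per gene at promoters and 560 outside. Sparse genes vary more, and the part of depth in this difference was not tested. In the 5420 genes with enough counts in both classes, the ratios of the classes were weakly related (Pearson's r = 0.17, Spearman's rho = 0.15, across genes that share the same 2 libraries). Among these genes the promoter peaks were shifted to set 1 in 168 and to set 2 in 138, and the other peaks in 466 and 497. Both classes were shifted to set 1 in 39 of these genes and to set 2 in 25, and they were shifted in opposite directions in 11.

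Vwf, which encodes von Willebrand factor of platelets and endothelium, ranked first among promoters. Its promoter peak had 19.7 CPM in set 1 and 3.46 CPM in set 2 (log2 ratio 2.49, 1.99 to 3.07), whereas the whole locus had a log2 ratio of 0.17. The tallest peaks of Vwf, 20160 and 50775 bp into the gene, had log2 ratios of -0.39 and 0.03, and sparse peaks at 4472 and 30974 bp had 33 against 5 and 62 against 11 counts. Further promoters among the first 10 toward set 1 included those of Fam84a, Kcnb2, Cavin2, Clca3a1, Usp13, Unc5d and Peg3, with log2 ratios of 1.59 to 2.32. The locus of AA986860 was also among them, but through a peak at the promoter of the neighboring Pfkfb2, with 344 counts in set 1 and 75 in set 2, and with peaks of a single locus its log2 ratio was 0.56. Toward set 2 the first 10 were led by Haao, with 8.66 and 46.8 CPM at the promoter (log2 ratio -2.43, -2.75 to -2.14). The promoter of Ncf4, a subunit of the phagocyte NADPH oxidase, had 3.45 and 20.9 CPM (log2 ratio -2.59, -3.10 to -2.13). Those of Cd33, Evpl, C1qtnf3, 6030468B19Rik, Arhgap30, Nlrp1b, Cd37 and Lat2, an adaptor of B cells and mast cells, had log2 ratios of -2.39 to -1.36.

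Outside promoters the first 10 loci were ranked in the same way. Toward set 1 these were Unc5d, Smtnl2, Mab21l3, Ros1, Tnfsf4, Elavl1, Ryr2, Ctso, Lurap1l and Uba7, with log2 ratios of 1.94 to 3.61. Elavl1, a widely expressed RNA-binding protein, had no shift over its whole locus (log2 ratio 0.13), but a peak 8211 bp into the gene had 183 counts in set 1 and 18 in set 2. Toward set 2 these included Emc3, Rtn1, Tmem206, Sart3 together with Iscu, Gpr45, Rtf2, Cracr2a, Foxr1 and Poll, with log2 ratios of -5.96 to -1.96.

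The largest ratio among loci with enough counts outside promoters belonged to a peak inside Emc3, a subunit of the endoplasmic reticulum membrane complex. This peak (chr6:113517446-113518282), which overlaps an exon and lies 13788 bp into the gene, had 4 counts in set 1 and 211 in set 2 (log2 ratio -5.96, -8.02 to -4.75). The 4 counts came from 1 of 818 cells, while 77 of 636 cells had counts in set 2. The promoter peak of Emc3 was somewhat higher in set 1 (12.8 and 9.37 CPM).

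Sequences of non-promoter peaks are shown for the first 3 named loci in each direction, to let the words be seen in place. The windows are again 300 bp of the plus strand of GRCm38 with words in capitals. Toward set 1 these were a peak inside Unc5d, 545921 bp from its start (chr8:28673357-28673656), with 1 RUNX word, a peak upstream of Smtnl2 (chr11:72415096-72415395), with 1 RUNX and 2 GATA words, and an intronic peak of Mab21l3 (chr3:101831681-101831980), with 1 PU.1 and 1 TEAD word. Their CPM in set 1 and set 2 were 5.82 and 0.815 at Unc5d, 16.3 and 2.04 at Smtnl2 and 15.2 and 2.24 at Mab21l3.
Unc5d: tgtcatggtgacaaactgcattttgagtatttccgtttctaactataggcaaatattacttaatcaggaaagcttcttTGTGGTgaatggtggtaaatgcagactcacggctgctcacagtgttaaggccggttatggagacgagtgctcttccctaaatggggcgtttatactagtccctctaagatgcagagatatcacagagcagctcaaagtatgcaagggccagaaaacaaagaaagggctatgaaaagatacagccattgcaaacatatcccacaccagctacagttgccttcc
Smtnl2: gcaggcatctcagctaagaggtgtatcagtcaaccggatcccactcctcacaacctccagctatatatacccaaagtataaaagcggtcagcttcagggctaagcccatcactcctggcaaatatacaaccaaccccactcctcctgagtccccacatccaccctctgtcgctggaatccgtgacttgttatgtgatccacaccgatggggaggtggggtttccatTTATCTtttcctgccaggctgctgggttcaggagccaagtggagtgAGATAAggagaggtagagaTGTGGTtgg
Mab21l3: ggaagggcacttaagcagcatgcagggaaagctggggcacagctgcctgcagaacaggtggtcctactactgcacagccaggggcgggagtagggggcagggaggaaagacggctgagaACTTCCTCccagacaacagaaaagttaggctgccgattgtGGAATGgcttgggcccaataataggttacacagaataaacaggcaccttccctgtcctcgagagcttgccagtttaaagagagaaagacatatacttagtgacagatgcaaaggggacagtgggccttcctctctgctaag

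Toward set 2 these were the peak of Emc3 described above (chr6:113517715-113518014), with 1 PU.1 and 1 GATA word, an intronic peak of Rtn1 (chr12:72361932-72362231) without any of the words, and a peak inside Tmem206 (chr1:191334566-191334865), with 1 GATA word. Their CPM in set 1 and set 2 were 0.306 and 21.5 at Emc3, 4.67 and 29.1 at Rtn1 and 1.99 and 11.1 at Tmem206. Single peaks of both directions thus held words of several factors.
Emc3: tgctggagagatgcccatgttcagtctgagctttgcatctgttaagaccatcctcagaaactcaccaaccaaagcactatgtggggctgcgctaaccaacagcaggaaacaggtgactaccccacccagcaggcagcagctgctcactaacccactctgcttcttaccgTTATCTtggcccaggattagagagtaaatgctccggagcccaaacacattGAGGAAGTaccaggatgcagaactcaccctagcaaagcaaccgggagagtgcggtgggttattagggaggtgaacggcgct
Rtn1: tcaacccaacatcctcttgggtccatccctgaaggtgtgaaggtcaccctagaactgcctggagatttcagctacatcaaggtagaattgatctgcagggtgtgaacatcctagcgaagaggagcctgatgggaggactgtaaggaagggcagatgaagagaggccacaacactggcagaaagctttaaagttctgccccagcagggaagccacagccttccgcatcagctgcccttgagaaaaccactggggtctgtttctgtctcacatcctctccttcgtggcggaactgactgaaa
Tmem206: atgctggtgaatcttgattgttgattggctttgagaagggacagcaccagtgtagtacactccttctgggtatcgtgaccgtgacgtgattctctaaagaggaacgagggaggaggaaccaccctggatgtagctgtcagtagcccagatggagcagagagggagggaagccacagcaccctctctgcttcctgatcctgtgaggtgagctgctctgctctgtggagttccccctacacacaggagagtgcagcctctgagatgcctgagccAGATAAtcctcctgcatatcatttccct

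The words were then counted in all 27536 peaks with 200 or more counts, of which 2699 were shifted to set 1 and 2414 to set 2. Outside promoters, peaks shifted to either set differed in their words. The PU.1 word was present in 5.24% of 2194 peaks shifted to set 1 and in 11.9% of 2070 peaks shifted to set 2, against 7.25% of all 14785 non-promoter peaks. The RUNX word was present in 28.7% and 38.3%, against 4430 of all 14785 peaks. The GATA word went the other way, with 21.8% toward set 1 and 13.6% toward set 2, against 14.5% of all. So did the AP-1 word with 17.0% and 12.2% (12.9% of all) and the TEAD word with 16.5% and 12.3% (14.4% of all). The C/EBP word, with 13.7% and 11.5%, and the other ETS word, with 0.456% and 0.531%, differed less.

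The base composition of non-promoter peaks shifted to set 1 differed as well, whereas by the median that of peaks shifted to set 2 did not. The median GC content was 48.3% in peaks shifted to set 1, 50.3% in those shifted to set 2 and 50.3% in all non-promoter peaks. When non-promoter peaks were divided into 4 bins of similar size by GC content, the PU.1 and RUNX words were more frequent in peaks shifted to set 2 than in those shifted to set 1 in all 4 bins. The GATA, AP-1 and TEAD words were more frequent in those shifted to set 1 in all 4, whereas C/EBP was so in 2 and other ETS in 1. In the bin with the least GC, 20.4% of peaks were shifted to set 1 and 11.3% to set 2. In the bin with the most, the shares were 10.8% and 12.6%. In the bins between, by rising GC content, they were 15.9% and 15.6%, then 12.4% and 16.7%. The part of base composition in the shifts was not tested. At promoters the PU.1 word was present in 2.57% of 505 peaks shifted to set 1, in 7.56% of 344 shifted to set 2 and in 2.31% of all 12751, and the RUNX word in 12.5%, 23.3% and 12.1%. The GATA word at promoters was not more frequent toward set 1, with 5.94% against 8.14% and 4.61% of all. The AP-1 word at promoters was present in 7.72% toward set 1, 5.23% toward set 2 and 4.18% of all. For the TEAD word these values were 14.7%, 10.2% and 10.4%.

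**Figure D4:**
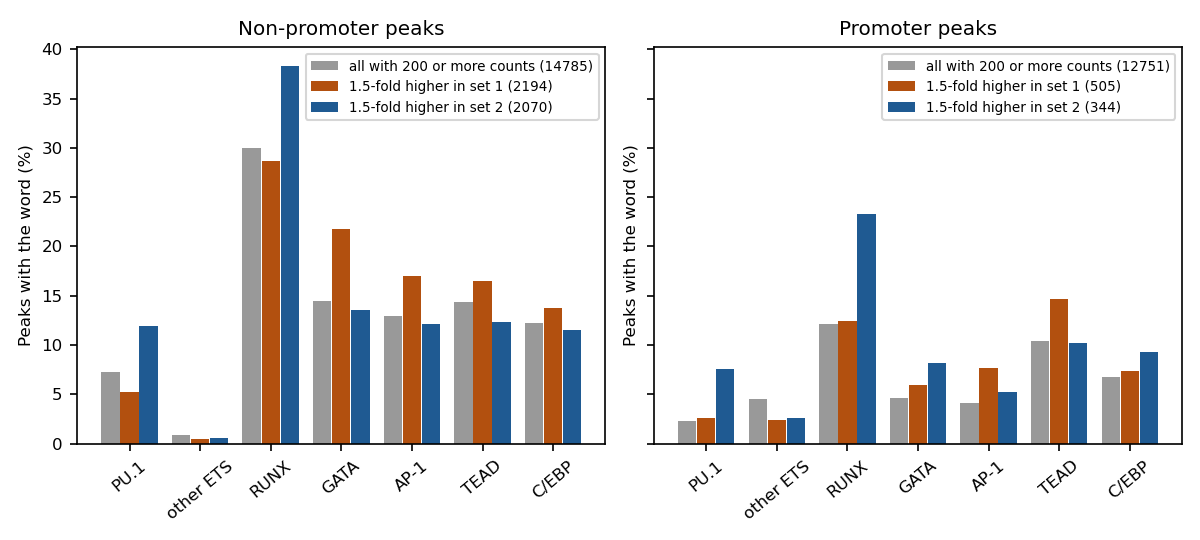
Percent of peaks whose central 300 bp hold each of 7 words (vertical axis), for all peaks with 200 or more counts, peaks 1.5-fold higher in set 1 and peaks 1.5-fold higher in set 2, outside promoters (left) and at promoters (right), with the number of peaks in the legend. Outside promoters the PU.1 and RUNX bars are tallest for set 2 and the GATA, AP-1 and TEAD bars are tallest for set 1.

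To see which programs the loci belong to, 19 gene lists were compiled and set beside all tested loci, of which 3.39% were shifted to set 1 and 2.55% to set 2 with a median log2 ratio of 0.00046. The lists were chosen with earlier results known, so the counts describe them and do not test them. Some genes are in more than 1 list, such as Slamf1, Procr and Cavin2, so the lists are not independent of each other. Genes known to rise in old HSCs stood furthest from the rest: 15 of 35 tested loci (42.9%) were shifted to set 1 and none to set 2, with a median log2 ratio of 0.55. Besides Cavin2, Clca3a1, Amotl2 and Clu these were Osmr, a subunit of the oncostatin M receptor, with 23.3 CPM in set 1 and 10.1 CPM in set 2, and further Tm4sf1 with a log2 ratio of 1.11, Gda with 1.02, Slamf1 with 0.88, Runx1t1 with 0.86, Neo1 with 0.85, Nupr1 with 0.83, Sbspon with 0.78, Procr with 0.77, Enpp5 with 0.75 and Fhl1 with 0.71. The lowest members were Cd38 (-0.31), Selp (-0.13) and Alcam (0.00). Several members had been linked to CLCA3A1 or TAZ by the study itself, so that the list is not independent of the sort.

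LT-HSC genes were open in both sets, with 2568 and 2244 CPM summed over the 22 listed genes, though Ly6a, which encodes the Sca-1 of the sort, overlapped no peak. Of these genes, 4 of 20 tested loci were shifted to set 1 and none to set 2, with a median of 0.26. Slamf1, which encodes the SLAM marker CD150, had 64.7 CPM in set 1 and 35.2 CPM in set 2, with the largest difference at an intronic peak 6163 bp into the gene (24.1 and 5.40 CPM). Procr, the protein C receptor EPCR, had a log2 ratio of 0.77 and Pdzk1ip1 of 0.67. Fgd5 (-0.33), Meis1 (-0.14) and Lmo2 (-0.03) were the lowest, and Hlf, Erg, Mecom and Kit lay between 0.10 and 0.27. Leaving out cells with over 3 times the median counts took Procr to 0.58, just under the size counted as a shift. Pdzk1ip1 had 0.34 without its most counted peak.

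Progenitor genes lay on the other side, and so, in the main comparison, did the B cell list and the neutrophil and macrophage list. Both of these lists of mature cells had a median of -0.17, over 6 and 4 tested loci, but neither sign held in every alternative. The B cell median was 0.072 with peaks scored as open or not in every cell. That of the neutrophil and macrophage list was 0.019 without the upstream part of the locus. In the list of multipotent and lymphoid progenitor genes, 4 of 23 tested loci were shifted to set 2 and none to set 1, with a median of -0.18. These were Cd53, a tetraspanin of leukocytes (31.4 and 62.3 CPM, log2 ratio -0.99), Cd34, Flt3, and Satb1, a chromatin organizer of lymphoid cells (-0.81). Ikzf1, the Ikaros factor, had -0.55, while Lsp1 (0.49), Rag1 (0.48) and Ebf1 (0.43) were the highest. Among myeloid progenitor genes, Cd33 and Gfi1 (-0.81) of 15 tested loci were shifted to set 2, with a median of -0.13. That median was -0.0024 with peaks scored as open or not in every cell and -0.015 with a minimum of 500 counts. Gfi1 had -0.35 without its most counted peak. The loci of Spi1, Cebpb, Elane and Cebpe had log2 ratios of 0.07 to 0.18.

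The megakaryocyte and platelet genes had 2 of 22 tested loci shifted to set 1, among them Cavin2, and none to set 2, with a median of 0.15. Mmrn1 (0.51), Gp1ba (0.45) and Gp9 (0.45) followed, and Plek (-0.33) was the lowest. Of the Hippo pathway and TEAD target genes, 3 of 25 were shifted to set 1: Amotl2, Ptpn14, a phosphatase that binds YAP (167 and 93.4 CPM, log2 ratio 0.84), and Sav1, the scaffold of the MST kinases (0.75). The TEAD genes Tead1, Tead2 and Tead4 had 0.34, 0.44 and 0.25, the kinase genes Lats1 and Lats2 had -0.07 and -0.16, and Amotl1 (-0.42) and Ccn2 (-0.30) were the lowest of the list. The median of the list was 0.15.

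The remaining lists had medians nearer to 0 than that of the LT-HSC genes. Of the TGF-beta and BMP genes, 3 of 27 were shifted to set 1, Bmp4 (0.78), the co-receptor Tgfbr3 (0.62) and the BMP target Id1 (0.61), with Smad9 (-0.55) and Tgfbr2 (-0.39) at the other end. The median was 0.021, and it was -0.0086 once every cell was thinned to 4899 counts, leaving out shallower cells. Fzd3, a Wnt receptor, was the only one of 29 Wnt and Notch genes to be shifted (0.76, but 0.32 without its most counted peak), and Lef1 was the lowest (-0.58). Of the adhesion and homing receptor genes, 3 of 23 were shifted to set 2: Itgb2 (-0.81) and Itgal (-0.67), the 2 chains of the integrin LFA-1, and Selplg (-0.70), the ligand of P-selectin. Without its most counted peak Itgal had 0.83, and Itgb2 had -0.56 in thinned cells. Of the 19 interferon response genes, Ifi27 (-0.89) was the only one shifted, and the median was 0.0044. With 3.39% and 2.55% of all tested loci shifted to set 1 and set 2, any list of 12 to 29 genes would hold few shifted loci or none. None of the 20 AP-1 and immediate early genes, 27 cell cycle genes, 17 MHC genes or 12 housekeeping genes was shifted in either direction. Their medians lay between -0.11 and 0.04, and Cdk6 had -0.32, Egr1 0.23 and Gapdh -0.06.

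**Figure D5:**
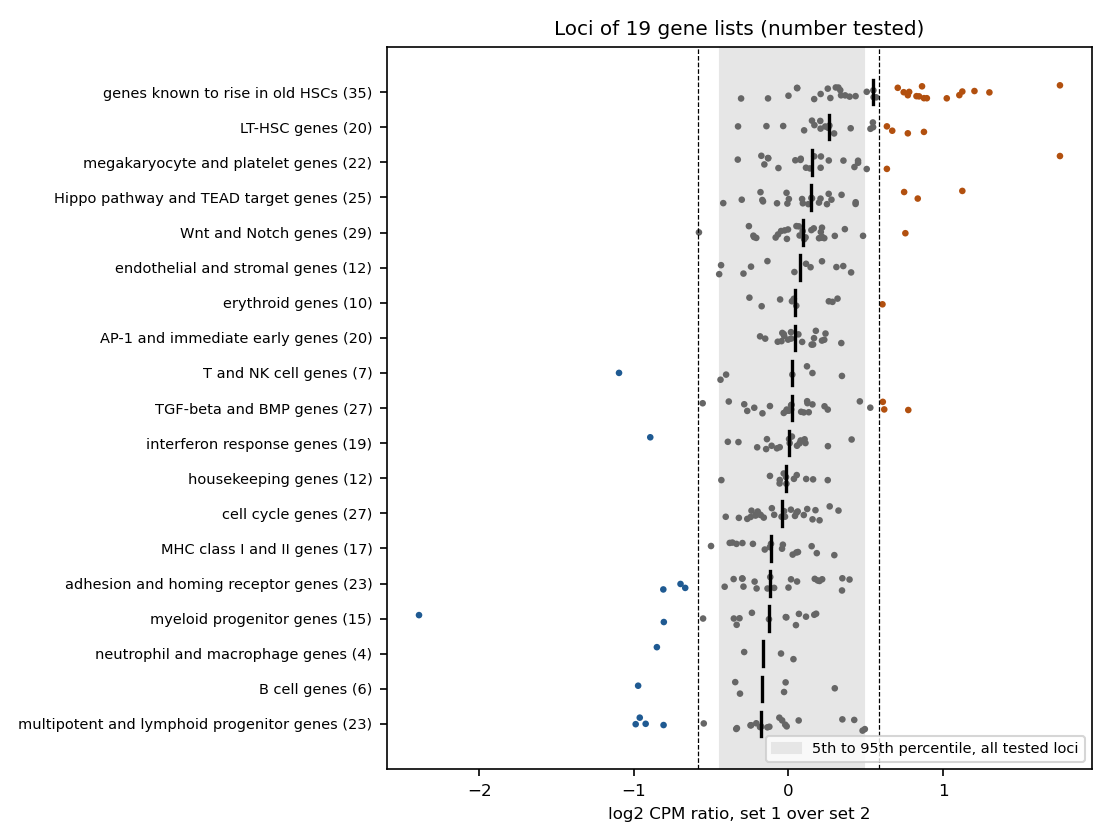
Log2 ratio of CPM in set 1 over set 2 (horizontal axis) at each tested locus of 19 gene lists (points, colored when 1.5-fold or more apart), with the list median as a black bar, the 5th to 95th percentile of all tested loci in grey and 1.5-fold as dashed lines. The genes known to rise in old HSCs have the highest median (0.55), and the multipotent and lymphoid progenitor genes have the lowest median (-0.18).

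Markers of mature cells were examined to see whether other cells differed between the sets. The B cell list had 6 of 12 members tested and 2 without a count, the T and NK cell list 7 of 18 and 6, the neutrophil and macrophage list 4 of 15 and 5, and the erythroid list 10 of 18 and 4. The loci of Cd3e, Cd8a, Ms4a1, Ly6g, C1qa, Alas2 and Hba-a1, which define such cells, overlapped no peak of the table, as did that of Ly6a, whose product the sort required, so that no level can be given for them. Cd3d had 29.7 and 39.3 CPM. With a minimum of 50 counts the median of the T and NK cell list was -0.44. The summed level of each list was 213 and 251 CPM for B cells, 259 and 298 CPM for T and NK cells, 313 and 325 CPM for neutrophils and macrophages and 561 and 547 CPM for erythroid cells in set 1 and set 2. Blnk (-0.97), Cd5 (-1.10) and Mmp8 (-0.85) were the members shifted to set 2, and Epor (0.61) was the only one shifted to set 1. In thinned cells Mmp8 had -0.42 and Epor 0.51. Endothelial and stromal genes had 507 and 510 CPM and no shifted member. Without the 5% of cells named above, 521 loci were shifted to set 1 and 386 to set 2, against 516 and 388 with all cells.

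Gene families were formed from gene symbols that share the letters before their first digit, which gave 500 families with at least 5 tested loci and 7132 loci in all. Those named were picked from the 500 for their extreme medians, so their shifted members are no test of a family. Over all tested loci 3.39% were shifted to set 1 and 2.55% to set 2. At loci with 200 to 500 counts these shares were 11.4% and 6.84%. The Hoxb genes, homeobox genes in a single cluster, had the highest median, 0.48, and all 8 tested members were higher in set 1. Hoxb2 (0.83) and Hoxb7 (0.72) were shifted, and the 8 loci formed 4 groups that had no peak in common. The next families were the protocadherins of the Pcdh group, with a median of 0.47 and 3 of 10 loci shifted, led by Pcdh15 (1.11) and Pcdh20 (0.76), and the ephrin receptors of the Epha group with 0.46, led by Epha6 (1.14) and Epha4 (0.56). The Wfdc (0.44), Coa (0.34), Krt (0.33), Igsf (0.30), Abca (0.27), Scamp (0.26) and Pcdha (0.26) families followed. The 12 Pcdha loci all share peaks and amount to 1 measurement, and Wfdc and Krt turned to -0.23 and -0.05 in thinned cells. The medians of Pcdh and Abca fell to 0.14 and 0.013 in thinned cells.

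The Nlrp family of inflammasome sensors had the lowest median, -0.80. Of its 5 tested loci 3 were shifted to set 2, Nlrp1b (-1.46), Nlrp3 (-0.89) and Nlrp1a (-0.80), but the median was -0.07 with a minimum of 500 counts and -0.15 with peaks scored as open or not in every cell. The Ugt family had -0.75, but 9 of its 10 loci were overlapping Ugt1a transcripts with common peaks, and only Ugt8a (0.97) was independent of them. The Evi family had -0.48 through Evi2, Evi2a and Evi2b, which overlap, and 0.02 with peaks of a single locus. The Padi family of peptidylarginine deiminases had -0.38, with Padi2 (-0.86) and Padi6 (-0.80) shifted, and all 5 of its loci were lower in set 1. Of the 18 loci whose symbols start with Rgs, which encode regulators of G protein signaling or, for Rgs7bp and Rgs9bp, proteins that bind them, 14 were lower in set 1 and 3 were shifted to set 2, among them Rgs1 (-0.89) and Rgs14 (-0.74), while Rgs20 (0.68) was shifted to set 1, with a median of -0.25. Rassf (-0.26), Tubb (-0.26), Acsl (-0.24), Tmprss (-0.28) and Csf (-0.24) completed the 10, of which Tmprss and Csf turned to 0.15 and 0.07 in thinned cells.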

How the data were processed

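Single-cell ATAC-seq counts of the table named for CLCA3A1high and CLCA3A1low LT-HSCs were analysed. According to the processing notes of the submitters, reads were processed with Cell Ranger ATAC 1.2.0 on mm10 (GRCm38), and the authors deposited raw counts of cut sites per peak and cell without normalization. All 93513 peaks lay within GRCm38 chromosomes, and GENCODE M21 genes were used. Barcode suffixes were not mapped to samples. Counts were summed per suffix over all cells, no doublet caller was run, and ratios were formed with 0.5 counts added to both sets. Intervals were Clopper-Pearson, conditional on the counts of both sets. The ratios and intervals were tried on simulated counts split independently at each locus. The simulation had neither pairs of cut sites nor cells, so it checks the calculation and not the coverage of the intervals in these data.

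Genes, lists and words were chosen with earlier results of these data known. The 25 loci per direction, and 10 per direction in each peak class, with the interval bound furthest from 0 were named, as were the 5 marker loci, the highest and lowest 3 of each list and the 10 families per direction with the most extreme medians. Other members are named as examples chosen after their values were seen. A locus that shares over 50% of its counts with one ranked higher was named with it. Analyses used Python 3.11.15, numpy 2.4.6, scipy 1.17.1 and pandas 2.3.3. In thinned cells, counts were drawn down to 4899 per cell, which left 749 and 560 cells. A few loci that meet these rules are not reported here. Alternatives are given at the end of the report.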

Additional observations from a re-analysis of the deposited data

How the results depend on the processing

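Counts of shifted loci moved with depth and thresholds, and so did their shares of the loci tested. What moved the shares was not tested. In the main comparison 3.39% and 2.55% of 15236 loci were shifted to set 1 and set 2. The central 90% of log2 ratios was 0.93 wide. With peaks scored as open or not in every cell the shares were 1.58% and 1.02% of 13188. In thinned cells they were 1.71% and 1.54% of 10888. A minimum of 500 counts gave 1.84% and 1.72% of 12764, and one of 50 gave 4.98% and 3.82% of 16673. Scoring peaks as open or not in every cell left 209 loci shifted to set 1 and 134 to set 2, with 94 and 53 at promoters, 188 and 211 outside them and a width of the central 90% of log2 ratios of 0.71. In thinned cells these values were 186 and 168, 118 and 92, 135 and 148, and 0.82. A minimum of 500 counts gave 235 and 219, 139 and 127, 212 and 233, and 0.80, and a minimum of 50 counts gave 831 and 637, 742 and 510, 1435 and 1382, and 1.101. A limit of 2-fold gave 116 and 61 loci, 78 and 38 at promoters and 162 and 173 outside. With peaks of a single locus only, the width was 1.05.

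The log2 ratio of Rtf2 went from -0.59 to 0.022 without the upstream part of the locus, which removes its shifted peak. Leaving out the most counted peak, an alternative chosen after seeing the data, turned Rapsn to 0.18, Slc1a7 to 1.21, Clca3a1 to -0.085, Rtn1 to 0.40 and Itgal to 0.83. It moved 86 further named loci out of their counting intervals, among them Haao to -0.65, Foxr1 to -1.25, Tespa1 to -0.83 and Rp1l1 to 0.64, and left 47 within them. Median-of-ratios scaling moved all log2 ratios by -0.00092, and the counts over all loci stayed within 1.5 times of those reported with it, with other promoter windows, with peak centres and without the 39 and 18 cells over 3 times the median counts. No paired analysis was possible because each barcode set is 1 library and no test was made.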

Other observations

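The following values were chosen after they were seen. The 9 peaks on the Y chromosome had 65.9 CPM in set 1 and 109 CPM in set 2, a log2 ratio of -0.72 (-0.85 to -0.59), while the X chromosome had 0.015. The methods of the study give female mice as the source of the stem and progenitor cells, and what these Y chromosome counts stem from was not tested. Among single peaks, the one ranked first toward set 1 by its interval bound was chr14:105767009-105767631, which lies in no locus and had 17.0 CPM in set 1 and 1.22 CPM in set 2, with counts in 100 and 5 cells. Besides the peak of Emc3, a peak at Panx1, which encodes a channel protein, was far lower in set 1, with 2.53 and 43.8 CPM (log2 ratio -4.09) and counts in 16 and 139 cells.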
